A study of Mus musculus with 10 samples.

Results

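H3K4me2 and H3K27me3 were compared at the same genes in mouse retina at postnatal day 7 (PN7). A gene symbol was said to carry a mark where its normalized occupancy, summed 2.5 kb to either side of the start of transcription (TSS), was at least 36.48, which is 4 times the mean anti-GFP background, and the same value was used for both marks. The mean is the one given in the study's methods, and the anti-GFP library listed in the series is labelled PN56, not PN7. Of 20045 symbols, 1378 carried both marks (6.87%), 5099 carried H3K4me2 alone (25.4%), 2052 carried H3K27me3 alone (10.2%) and 11516 carried neither (57.5%). The whole retina of wild type C57BL/6j mice was used per the study's methods, while rd1/rd1 is the strain in the labels of every library. Chromatin came from pooled retinas, at least 20 for a stage, with 1 library for each mark and no input or anti-GFP column in the table, so no difference could be tested against replicates and no p-value is given. The libraries at E17.5 (E17 in the labels), PN1 and PN15 were made from the same strain with the same antibodies, and are used where they show how PN7 differs. The catalogue numbers of the antibodies against H3K4me2 and H3K27me3 are exchanged between labels and methods, and the PN7 column of H3K27me3 carries an added letter b, which the sources do not explain.

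H3K4me2 accumulates around the start of genes that are active or ready for activation. H3K27me3 is placed by Polycomb repressive complex 2 and accompanies silencing of developmental genes. Promoters with a mark of both kinds are called bivalent, and were described in stem cells at CpG-rich promoters of regulators of development, where one of the marks is often lost on differentiation. At PN7 the mouse retina is close to the end of cell birth: ganglion, horizontal, amacrine and cone cells are in place, while rods, bipolar cells and Müller glia mature. A whole retina holds all of these cells, so both marks on the same chromosome cannot be told apart from each mark in different cells.

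The promoters of 6 genes are shown as examples of the classes and do not stand for their range. Nr4a2, an orphan nuclear receptor gene, led the symbols with both marks. Sox2, a progenitor transcription factor gene, and Pitpnm3, which encodes a membrane-associated phosphatidylinositol transfer protein, also carried both. Smarca2, which encodes a chromatin remodelling ATPase, led those with H3K4me2 alone. Hoxa3, a homeobox gene, was the highest of those with H3K27me3 alone for which a promoter was given, and Crx, a photoreceptor transcription factor gene, carried neither mark and was chosen with its values known. Each line gives the 250 bases before the RefSeq start (build GRCm38.p6), 5′ to 3′ on the strand of the gene, with every CpG in capitals.
Nr4a2: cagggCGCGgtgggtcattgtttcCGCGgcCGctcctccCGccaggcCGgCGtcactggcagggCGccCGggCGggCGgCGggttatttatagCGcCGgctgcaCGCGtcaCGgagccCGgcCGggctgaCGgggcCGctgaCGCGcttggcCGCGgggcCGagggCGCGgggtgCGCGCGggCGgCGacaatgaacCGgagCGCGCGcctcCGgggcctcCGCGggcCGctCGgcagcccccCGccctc
Sox2: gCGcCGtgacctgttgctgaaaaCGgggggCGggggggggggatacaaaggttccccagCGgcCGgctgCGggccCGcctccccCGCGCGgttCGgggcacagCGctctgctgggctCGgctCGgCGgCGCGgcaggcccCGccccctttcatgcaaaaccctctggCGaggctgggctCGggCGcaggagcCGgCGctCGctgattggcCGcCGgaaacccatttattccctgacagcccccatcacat
Pitpnm3: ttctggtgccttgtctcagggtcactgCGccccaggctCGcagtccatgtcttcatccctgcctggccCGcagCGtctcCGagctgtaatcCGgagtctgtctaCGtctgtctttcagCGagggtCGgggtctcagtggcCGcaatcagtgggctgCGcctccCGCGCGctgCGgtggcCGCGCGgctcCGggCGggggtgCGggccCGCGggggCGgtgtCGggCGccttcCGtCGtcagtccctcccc
Smarca2: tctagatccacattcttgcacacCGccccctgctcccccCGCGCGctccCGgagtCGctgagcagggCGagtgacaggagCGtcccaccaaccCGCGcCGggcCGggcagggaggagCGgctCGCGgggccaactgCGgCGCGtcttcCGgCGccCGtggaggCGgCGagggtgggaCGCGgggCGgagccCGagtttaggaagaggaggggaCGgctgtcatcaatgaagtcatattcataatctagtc
Hoxa3: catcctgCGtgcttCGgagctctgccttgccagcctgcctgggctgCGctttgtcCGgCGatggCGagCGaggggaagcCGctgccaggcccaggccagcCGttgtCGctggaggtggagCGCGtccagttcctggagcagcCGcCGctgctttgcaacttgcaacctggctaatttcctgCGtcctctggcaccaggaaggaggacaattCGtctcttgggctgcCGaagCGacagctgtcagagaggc
Crx: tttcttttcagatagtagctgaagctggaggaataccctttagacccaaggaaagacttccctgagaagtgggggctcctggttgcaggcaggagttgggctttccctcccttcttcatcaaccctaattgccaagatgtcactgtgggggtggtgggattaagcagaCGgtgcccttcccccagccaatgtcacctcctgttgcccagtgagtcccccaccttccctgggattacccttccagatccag
These stretches lie at chr2:57124004-57124253 (minus strand), chr3:34649745-34649994 (plus), chr11:72135890-72136139 (minus), chr19:26604910-26605159 (plus), chr6:52213068-52213317 (minus) and chr7:15879956-15880205 (minus). The Nr4a2 stretch held 44 CpG, a number reached by 0.539% of 32851 RefSeq promoters of the same length. Pitpnm3 and Smarca2 each had 28, Sox2 had 27 and Hoxa3 had 18. The Crx stretch had 1, and 92.1% of the promoters held at least that many. The median over all of them was 6. CG reads the same on both strands, so one count serves both.

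The H3K4me2 library of PN7 stood apart from the other H3K4me2 libraries. It listed 20.1% of symbols at 0, where those of E17.5 (0.419%), PN1 (0.429%) and PN15 (2.78%) had few. Its median was 24, below 41, 27 and 42 at those stages, although its maximum of 285 was close to that of E17.5 (283) and PN15 (278). Its upper quartile (43) and 95th percentile (77) were below those of E17.5 (65 and 94) and PN15 (78 and 122), while those of PN1 were 44 and 65. The H3K27me3 libraries had medians of 11, 10, 9 and 10 in order of stage, and that of PN7 also listed more symbols at 0 (2.4%) than those of E17.5 (0.125%), PN1 (0.14%) and PN15 (0.0698%). The part of these differences in the counts of each class was not tested. The number of reads behind each value is unknown, since the table holds normalized sums.

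At PN7, 32.3% of all symbols carried H3K4me2 and 17.1% carried H3K27me3, and 6.87% carried both. Of the symbols with H3K27me3, 40.2% also carried H3K4me2, and of those with H3K4me2, 21.3% also carried H3K27me3. The share of H3K27me3 genes with H3K4me2 came to 47.0% for E17.5, to 23.7% for PN1 and to 33.3% for PN15. The share of H3K4me2 genes with H3K27me3 was 13.9%, 11.0% and 9.87% at those stages. PN7 was thus highest by the second measure and E17.5 by the first.

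Had the marks been spread over the symbols independently, the shares at PN7 would give 1110 symbols with both, and the observed number was 1.24 times that. The same ratio came to 0.869 for E17.5, 0.634 for PN1 and 0.628 for PN15. With the top 25% of each column called in place of a fixed value, PN7 stayed at 1.24 and the other stages were at 0.581, 0.602 and 0.282. The ratio at PN7 depended on the symbols listed at 0: it was 1.03 without them. At 2 times the anti-GFP mean it was 1.05 at PN7, beside 1.09 at E17.5 and 1.02 at PN1, so PN7 did not stand above E17.5 there. Across all symbols Spearman's rho between the marks was 0.162 at PN7 and -0.089 (E17.5), -0.076 (PN1) and -0.345 (PN15) elsewhere, and Pearson's r at PN7 was 0.057; these are weak and describe genes of the same pair of libraries.

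**Figure D1:**
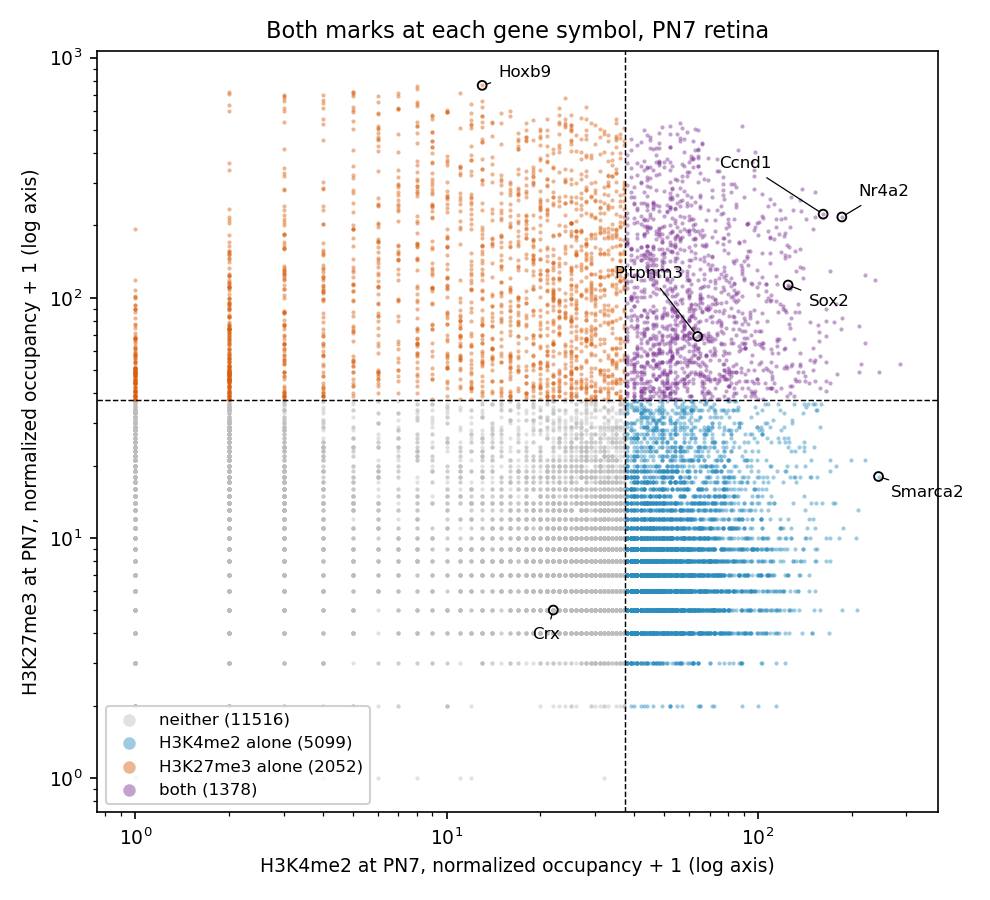
H3K4me2 (x axis) against H3K27me3 (y axis) at PN7, each as normalized occupancy plus 1 on a log axis, with 1 point for each of 20045 symbols coloured by class and dashed lines at the threshold. The 1378 symbols with both marks fill the upper right, where Nr4a2 (185 and 216) and Ccnd1 (161 and 222) lie furthest out, while Hoxb9 is high in H3K27me3 alone and Smarca2 in H3K4me2 alone.

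Within the 1378 symbols H3K27me3 was usually the higher value. Its median was 85 (quartiles 53.0 and 162) and that of H3K4me2 was 57 (quartiles 46.0 and 77.0). H3K27me3 was higher at 935 symbols, H3K4me2 at 431, and they were equal at 12. The median log2 ratio of H3K4me2 to H3K27me3, with 1 added to each, was -0.48 (quartiles -1.48 and 0.16), and 59.1% of symbols were within 2-fold of balance. Beyond 4-fold the members were one-sided: 196 had more H3K27me3 and 5 had more H3K4me2. The most H3K27me3-sided gene was Tbx18, a T-box factor gene, with H3K4me2 of 38 and H3K27me3 of 456, and the most H3K4me2-sided was Pcdh10, a protocadherin gene, with 285 and 52. Both were chosen after their values were seen. The H3K4me2 level of symbols with both marks was no lower than that of symbols with H3K4me2 alone (medians of 57 and 51), and their H3K27me3 was somewhat below that of symbols with H3K27me3 alone (85 and 97). Values above the threshold are fixed by the rule, so these medians are a description.

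Nr4a2 (mm9, chromosome 2, 56959241 to 56976414, minus strand) had the largest smaller-of-both value. In order of stage from E17.5 through PN15, H3K4me2 read 129, 82, 185 and 137 and H3K27me3 read 131, 198, 216 and 129. Both marks were above the threshold at every stage. Both were highest at PN7, which the choice of the gene by its PN7 values favours. Ccnd1 (chromosome 7, 152115836 to 152125774, minus strand), which encodes the D-type cyclin of retinal progenitors, had H3K4me2 of 118, 73, 161 and 120 and H3K27me3 of 71, 134, 222 and 126 in the same order. It too had both marks at every stage, and its higher values at PN7 are favoured by the same choice.

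The other 10 of the leading 12 had smaller-of-both values from 132 to 151. Some of them are immediate early or signalling genes, a grouping that was not counted over all symbols. Egr2, a zinc finger factor gene induced by activity and growth signals, had 151 of H3K4me2 and 276 of H3K27me3 at PN7, and Atf3, a stress-induced bZIP factor gene, had 136 and 254. Fst, which encodes the activin and BMP antagonist follistatin, had 151 and 216, and Pdgfa, a growth factor gene, had 149 and 193. Cebpa, a bZIP factor gene, had 142 and 212. Scrt1, a neuronal zinc finger repressor gene, had 136 and 133. The leading symbols also included Kif26b, a kinesin family gene (137 and 228), Hmga2, an architectural chromatin protein gene (135 and 158), and Galntl1, a glycosyltransferase gene (139 and 132). In H3K4me2 all 12 were higher at PN7 than at any other stage, which their choice by PN7 values favours. Their H3K27me3 had no common course: at Egr2 it was 301, 451, 276 and 125 in order of stage, and at Hmga2 40, 82, 158 and 104.

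At the threshold used, progenitor and eye field genes had the largest share of both marks among the cell type lists. Of 29 such genes in the table, 17 (58.6%) carried both, 10 carried H3K4me2 alone and 2 carried H3K27me3 alone, against 6.87% with both over all symbols. The order depended on the setting: at 2 times the anti-GFP mean 21 of 29 progenitor genes, 22 of 30 amacrine and 9 of 11 horizontal cell genes carried both, and with rescaled libraries 19 of 29 progenitor and 20 of 30 amacrine cell genes did. The list's median was 111 for H3K4me2 and 54 for H3K27me3. Dll4, a Notch ligand gene, had 165 of H3K4me2 and 89 of H3K27me3. Notch1, its receptor gene, had 128 and 42, and Hes1, a target of the pathway, had 152 and 44. Zic1, a zinc finger factor gene of the neural plate, had 77 and 256.

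The eye field factors were divided. Pax6 had 114 of H3K4me2 and 113 of H3K27me3, Lhx2 had 88 and 85, Rax had 41 and 43, and Sox2 had 124 and 112. Six3 (103 and 16), Six6 (117 and 11), Meis1 (111 and 8) and Meis2 (154 and 33) carried H3K4me2 alone. These factors act in the same early eye network. The H3K4me2 values of those with and without H3K27me3 overlapped, from 41 to 124 in the first and from 103 to 154 in the second. The 2 members with H3K27me3 alone were Lin28b, an inhibitor of let-7 maturation (3 and 303), and Otx2, a factor of photoreceptor and bipolar precursors (33 and 130). Apart from Zic1, Dll4, Hes1, Meis2 and Lin28b, these genes stand outside the rule that fixed the named genes and were chosen with values known.

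Most genes on the lists of ganglion, horizontal, amacrine and bipolar cells carried H3K27me3, with or without H3K4me2. Over all symbols 6.87% had both marks and 10.2% had H3K27me3 alone, 17.1% in all. Of 25 retinal ganglion cell genes, 13 (52.0%) carried both marks, 8 carried H3K27me3 alone, none carried H3K4me2 alone and 4 carried neither. Of 11 horizontal cell genes, 5 carried both and 6 carried H3K27me3 alone. Of 30 amacrine cell genes, 11 (36.7%) carried both, 13 carried H3K27me3 alone, 2 carried H3K4me2 alone and 4 carried neither. Bipolar cell genes divided into 7 with both, 8 with H3K27me3 alone, 1 with H3K4me2 alone and 4 with neither, of 20. The median H3K27me3 of these lists was 311, 213, 257.5 and 122.5 in that order.

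Among ganglion cell factors, Pou4f2, the POU factor gene of early ganglion cell differentiation, carried both marks with 62 of H3K4me2 and 412 of H3K27me3. Its relative Pou4f3 had H3K27me3 alone (22 and 421), as had Tbr1 (12 and 444) and the Iroquois genes Irx1 (18 and 550), Irx2 (27 and 392) and Irx4 (5 and 483). The H3K27me3 of Pou4f2 was thus near that of genes without H3K4me2. Among horizontal cell genes, Onecut2 had 121 and 213 with both marks, while Onecut3 had 24 and 495 and Lhx1 had 32 and 474 with H3K27me3 alone. Tcfap2a, an AP-2 factor gene shared by the horizontal and amacrine lists, carried both (47 and 441), and its relative Tcfap2b carried H3K27me3 alone (22 and 402). Ptf1a, a bHLH factor gene needed for both of these cell types, had 32 and 323.

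Amacrine genes with H3K27me3 alone included the GABA synthesis and transport genes Gad1 (36 and 450) and Slc32a1 (25 and 408), and Dlx1 (36 and 509) and Ebf2 (34 and 423). Gad1 and Dlx1 had H3K4me2 of 36, the largest whole value outside the threshold. Among bipolar genes, Lhx4 (107 and 240) and Prdm8 (39 and 204) carried both marks, whereas Bhlhe23 (6 and 404), Isl1 (32 and 372), Vsx1 (16 and 328) and Grm6, the glutamate receptor gene of ON bipolar cells (20 and 293), carried H3K27me3 alone. Proneural bHLH factor genes, which drive neuronal fate, had both marks at 10 of 20, H3K27me3 alone at 8 and neither at 2. The shares over all symbols were 6.87%, 10.2% and 57.5% in that order.

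Rod genes carried both marks about as often as all symbols did. Of 29 rod genes, 2 (6.9%) carried both, near the 6.87% over all symbols, 6 carried H3K4me2 alone, 6 carried H3K27me3 alone and 15 carried neither. The members with both were Rgs9bp, an anchor of the phototransduction GTPase-activating protein (135 and 58), and Tulp1, a tubby-like photoreceptor gene (52 and 106). Slc24a1, the rod sodium-calcium-potassium exchanger gene, had 3 and 157, Guca1a, a guanylate cyclase activator gene, had 4 and 144, and Abca4, a retinoid transporter gene, had 34 and 105. Rom1, a disk membrane protein gene, had H3K4me2 alone (73 and 5). At PN15 all 29 rod genes carried H3K4me2, 4 of them with H3K27me3 as well. The share of all symbols with H3K4me2 was also higher at PN15, at 53.0% against 32.3% at PN7. None of 12 cone genes carried both: 3 had H3K4me2 alone, 4 had H3K27me3 alone and 5 had neither. Thrb, a thyroid hormone receptor gene needed for M-cone identity, had 102 and 14, and Gnb3 had 43 and 5. Cnga3, the cone channel gene (9 and 100), Gnat2, the cone transducin gene (4 and 72), Gngt2 (15 and 54) and Pde6c (2 and 40) had H3K27me3 alone.

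Müller glia genes carried H3K4me2 alone at 10 of 20, against 25.4% of all symbols, and 4 carried both, against 6.87%. Of the rest, 1 carried H3K27me3 alone and 5 carried neither. The 4 with both were regulators, namely Hes1 (152 and 44), Sox9 (126 and 110), Id3 (82 and 64) and Sox8 (80 and 42). Hes1 and Sox9 are also on the progenitor list. Glul, the glutamine synthetase gene (94 and 5), and Ccnd3 (93 and 10) had H3K4me2 alone. The lists for cells from outside the neural retina were checked for the make-up of the tissue. None of 19 lens genes, 10 microglia genes, 5 astrocyte genes or 9 erythroid genes carried both, and H3K4me2 was at most 20, 5, 27 and 44 in these lists. Flt1 (47 and 362), 1 of 10 blood vessel genes, and Mitf (49 and 38), 1 of 10 pigment epithelium genes, carried both. Flt1 and Mitf were named after their values were seen. Marks at marker genes do not measure the number of cells of a type, and the part of such cells in these results was not tested.

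**Figure D2:**
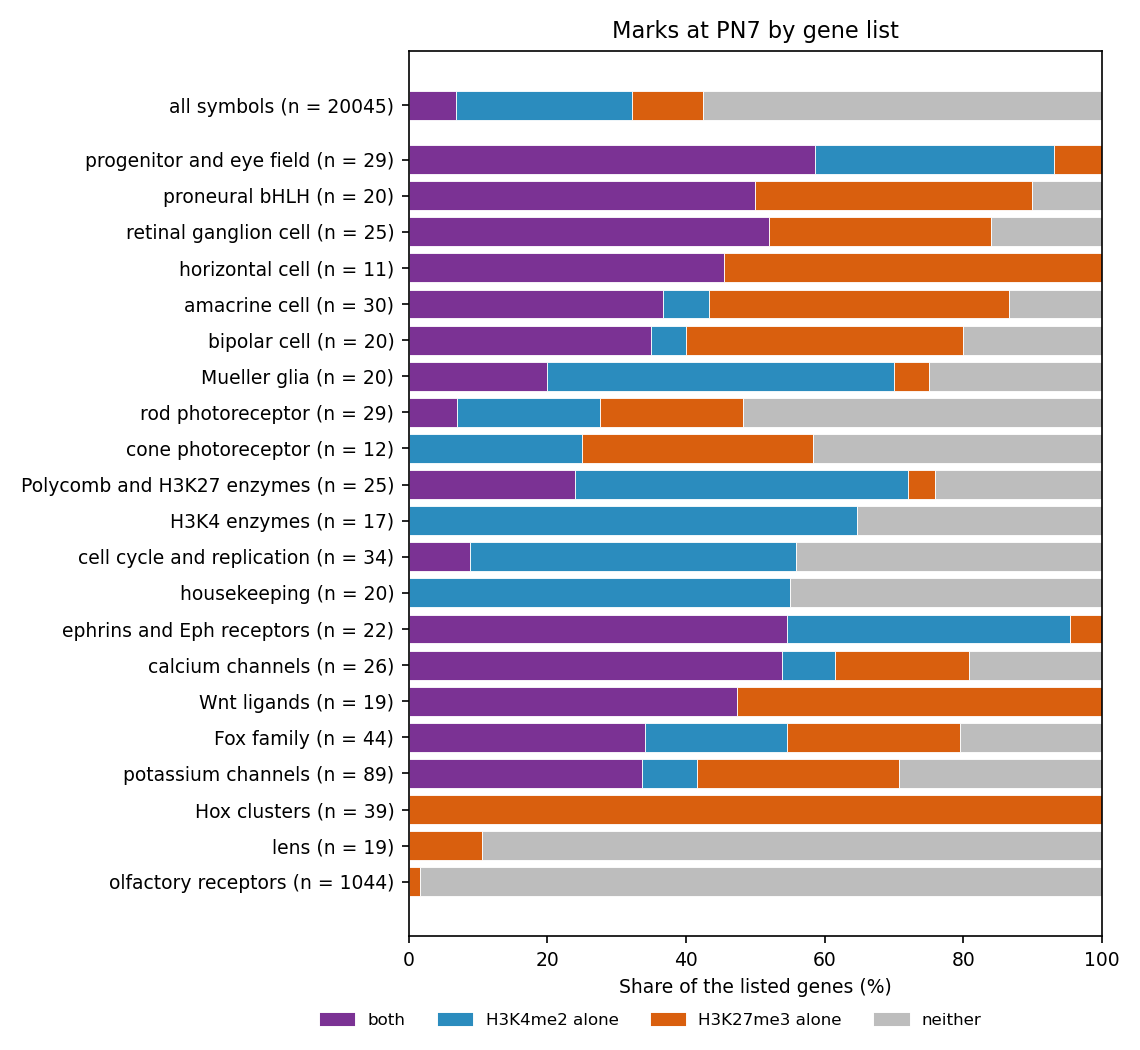
Share of the genes of each list (x axis, %) with both marks, H3K4me2 alone, H3K27me3 alone or neither at PN7, with all 20045 symbols on top and n for each list on the y axis. Progenitor genes reach 58.6% with both marks and ganglion cell genes 52.0%, Hox genes carry H3K27me3 alone, and olfactory receptor genes carry almost no mark.

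The families of developmental regulators differed from each other. All 39 Hox genes had H3K27me3 alone, with H3K27me3 from 497 to 766 and H3K4me2 from 1 to 24. Hoxb9 (plus strand of chromosome 11, 96132771 to 96137909) read 676, 957, 766 and 349 for H3K27me3 in order of stage, where H3K4me2 read 14, 13, 12 and 9. The 10 highest symbols with H3K27me3 alone were all Hox genes, with Hoxa3 at 762, Hoxa5 at 742, Hoxa10 and Hoxa6 at 721, Hoxb4 at 716, Hoxa7 at 713, Hoxc4 at 712, Hoxa9 at 707 and Hoxd4 at 704. Pax genes had H3K27me3 alone at 8 of 9, with Pax6 the exception, and Nkx genes at 12 of 13, with Nkx6-1 (40 and 433) the exception just inside the threshold. Over all symbols 10.2% had H3K27me3 alone.

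Fox genes by contrast had both marks at 15 of 44, H3K27me3 alone at 11, and H3K4me2 alone or neither at 9 each. Foxn4, an amacrine and horizontal cell factor gene, had 41 and 64. Zic genes had both at 4 of 5. Six2 (62 and 506) and Six4 (131 and 156) also carried both marks. Sox genes had both at 7 of 19, Lhx genes at 3 of 8 and Dlx genes at 3 of 6. Among ligands, 9 of 19 Wnt genes (47.4%) carried both and 10 carried H3K27me3 alone, so every Wnt gene was above the H3K27me3 threshold, with values from 42 to 469. Wnt5a had 112 of H3K4me2 and 174 of H3K27me3, and Wnt5b had 37 and 42. Fgf genes had both at 6 of 22 and Bmp genes at 4 of 10. Both marks were found at 3 of 6 Irx, 3 of 6 Gata, 5 of 15 Pou and 3 of 13 Tbx genes. Against the 6.87% over all symbols, these regulator families ranged from 0% (Hox) to 80.0% (Zic) with both, and many of them have few genes.

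The families of neuronal membrane and cell contact genes differed among themselves, beside the 6.87% of all symbols with both marks. Calcium channel subunit genes carried both marks at 14 of 26 (53.8%) and potassium channel genes at 30 of 89 (33.7%). Cacna2d3, an auxiliary subunit gene, had 107 and 189, and Cacna1b, the N-type channel gene, had 89 and 117. Glutamate receptor genes had both at 5 of 26 (19.2%) and H3K27me3 alone at 14, and GABA receptor genes had both at 3 of 19 (15.8%) and neither at 12. Of 22 ephrin and Eph receptor genes, 12 (54.5%) carried both, 9 carried H3K4me2 alone and 1 carried H3K27me3 alone. Epha4 had 139 and 120, and Efna5, a repulsive cue of retinal axon mapping, had 243 and 48. Semaphorin and plexin genes had both at 9 of 29 (31.0%) and H3K4me2 alone at 11. Clustered protocadherin genes, in contrast, had both at 1 of 58 (1.72%) and neither at 54.

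The enzymes of the 2 marks had different marks of their own. Of 25 Polycomb and H3K27 enzyme genes, 6 (24.0%, against 6.87% over all symbols) carried both marks, 12 carried H3K4me2 alone, 1 carried H3K27me3 alone and 6 carried neither. Several chromobox readers of repressive complex 1 had H3K27me3: Cbx8 (84 and 142) and Cbx2 (98 and 45) carried both, and Cbx7 carried H3K27me3 alone (20 and 114). Bmi1 (47 and 60), Pcgf1 (78 and 74) and Phf19 (46 and 75) also had both and were named after their values were seen. The core genes of complex 2 had little H3K27me3: Ezh2 had 44 and 5, Eed 49 and 6, and Suz12 33 and 4. Pcgf2 (127 and 9) and the H3K27 demethylase gene Kdm6b (103 and 3) carried H3K4me2 alone. None of 17 H3K4 enzyme genes had H3K27me3, with values from 3 to 22, and 11 carried H3K4me2, led by Mll1 (131 and 22) and followed by Mll3 (69 and 6), Dpy30 (64 and 8), Kdm1b (64 and 3), Wbp7 (60 and 5) and Men1 (56 and 4). Over all symbols 17.1% carried H3K27me3, with a median of 9, and 32.3% carried H3K4me2, so low H3K27me3 was common to most genes.

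Symbols with H3K4me2 alone were led by Smarca2 (chromosome 19, 26679650 to 26852811, plus strand). Its H3K4me2 was 105, 73, 243 and 151 and its H3K27me3 was 26, 28, 17 and 16 in order of stage. Junb, an AP-1 factor gene (220 and 20 at PN7), Tnrc18 (209 and 12), Patz1 (207 and 4), Zfp536 (206 and 9), Hivep2 (198 and 20), Phf21b (187 and 10), Ptch1, the Hedgehog receptor gene (185 and 4), Klf13 (181 and 9) and Dpf3 (177 and 19) followed. Not all of them were free of H3K27me3 at other stages, since Junb had 51 at E17.5 and 89 at PN1, and Tnrc18 had 106 at PN15. The lists of general cell functions differed. Of 20 housekeeping genes 11 had H3K4me2 alone, 9 had neither and none had both. Cell cycle and replication genes had both marks at 3 of 34, which were Ccnd1, Ccnd2 (88 and 519) and Rrm2 (39 and 37), and H3K4me2 alone at 16. Translation initiation factor genes had H3K4me2 alone at 26 of 49 (53.1%) and cytosolic ribosomal protein genes at 32 of 83 (38.6%), but mediator (28.6%), proteasome (23.7%) and complex I subunit genes (19.4%) were near or below the 25.4% over all symbols, and most of their genes had neither mark. These counts differed by stage: in order of stage H3K4me2 alone was found at 36, 30, 7 and 36 of the 36 complex I genes, at 32, 25, 9 and 34 of the 38 proteasome genes and at 26, 17, 8 and 26 of the 28 mediator genes. Of the housekeeping genes 2, 7, 9 and 1 had neither mark. The median H3K4me2 over all symbols was 24 at PN7 and 27 at PN1, and the part of the library in these counts was not tested. Neither mark was at the threshold at 1027 of 1044 olfactory receptor genes and at all 296 vomeronasal receptor genes. Both marks were at 0 of 52 keratin, 0 of 46 keratin-associated protein, 0 of 41 beta-defensin, 1 of 35 chemokine, 2 of 34 interleukin, 2 of 93 cytochrome P450, 2 of 62 replication-dependent histone and 6 of 315 Zfp genes, each a share below the 6.87% over all symbols. Collagen genes had both at 9 of 40 (22.5%), pluripotency genes at 3 of 14 and CDK inhibitor genes at 2 of 10.

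The class at PN7 was set beside the classes at the other stages, which the PN7 libraries did not enter. Of the 1378 symbols, 926 (67.2%) had both marks already at E17.5, as had 555 (40.3%) when PN1 was examined and 781 (56.7%) for PN15. Over all 20045 symbols both marks were found at 1507 (7.52%) in the E17.5 pair of libraries, 819 (4.09%) in the PN1 pair and 1049 (5.23%) in the PN15 pair. At E17.5 a further 286 (20.8%) had H3K4me2 alone, against 46.5% of all symbols, and 150 (10.9%) had H3K27me3 alone, against 8.49%. At PN1 612 (44.4%) had H3K27me3 alone, against 13.2% of all symbols, in a library whose H3K4me2 values had the smallest maximum of the 4 (195). At PN15 295 (21.4%) had H3K27me3 alone, against 10.5% of all symbols, and 283 (20.5%) had H3K4me2 alone, against 47.8%. Few of the symbols had neither mark elsewhere: E17.5 had 16, PN1 had 60 and PN15 had 19. Both marks were present at all 4 stages at 295 symbols (21.4%), and at PN7 only at 186 (13.5%).

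By median, the 1378 symbols had H3K4me2 of 57, 37, 57 and 51.5 in order of stage, and H3K27me3 of 78, 93, 85 and 62.5. The low H3K4me2 at PN1 went with a low median over all symbols of that library (27), while at PN7 the median over all symbols was lower still (24). The PN7 medians of the 1378 symbols (57 and 85) are held up by the rule that chose them. The medians over all symbols are not, so the PN7 level of these symbols cannot be compared with the other stages here. With every library rescaled to the same median of its mark, the share of these symbols with both became 43.1% for E17.5, 50.5% for PN1 and 32% for PN15, so the order of the stages changed with the scaling. Symbols with H3K4me2 alone at PN7 had H3K4me2 alone in 94.3% of cases at E17.5 and 95.7% at PN15, where 46.5% and 47.8% of all symbols had it. Of the symbols with neither mark at PN7, 36% and 37.5% had H3K4me2 alone at these stages, below those shares.

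**Figure D3:**
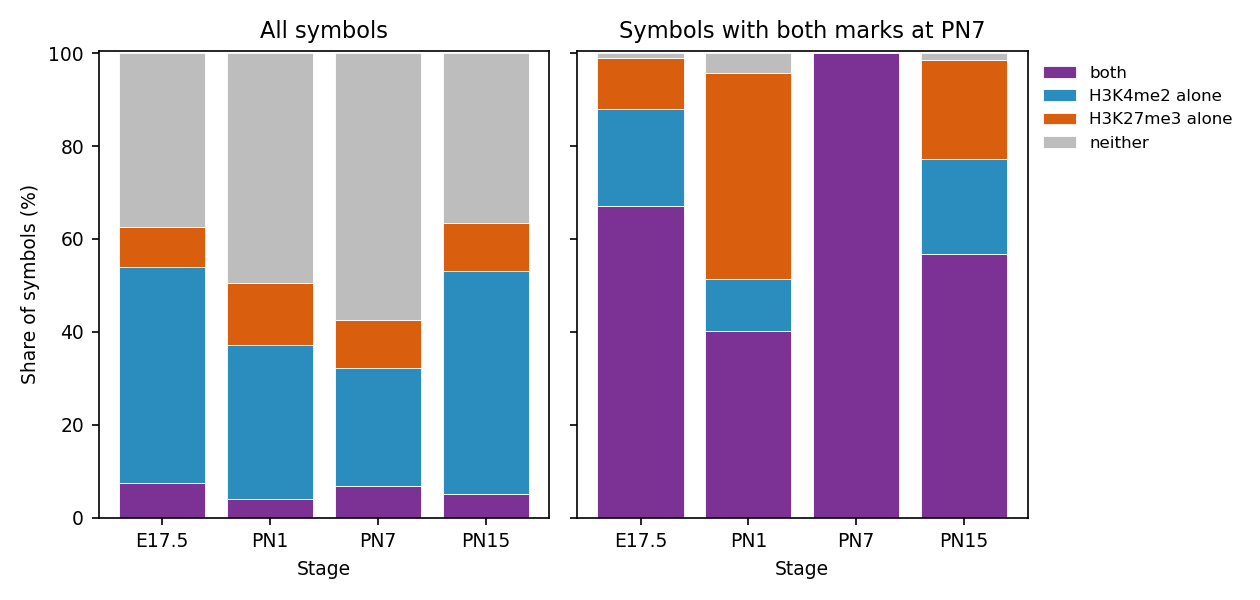
Share of symbols (y axis, %) in each class by stage (x axis), for all 20045 symbols (left) and for the 1378 with both marks at PN7 (right, where PN7 is 100% by the rule). Among the latter, both marks were found at E17.5 for 67.2%, at PN1 for 40.3% and at PN15 for 56.7%, and H3K27me3 alone was most frequent at PN1 (44.4%).

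At some genes with both marks at PN7, the 2 marks differed in opposite directions between E17.5 and PN15. The change from E17.5 to PN15, which uses no PN7 library, was taken with 1 added to each value. H3K4me2 was at least 2-fold higher and H3K27me3 at least 2-fold lower at PN15 for 63 of the 1378 symbols (4.57%), against 1.44% of all symbols. The opposite held for 34 (2.47%), against 2.06% of all symbols. The share of the first direction was thus above that of all symbols, and the share of the second was close to it. In the other classes the first direction was found at 1.94% with H3K4me2 alone, 1.85% with H3K27me3 alone and 0.764% with neither, and the second at 0.549%, 1.22% and 2.83%, so the second was more frequent with neither mark than with both. Lower H3K27me3 at PN15 was common to the genes that carried it: the median log2 change of H3K27me3 was -0.58 over the 1378 symbols and -0.73 over those with H3K27me3 alone. In the PN15 library the 95th percentile of H3K27me3 was 97, against 160 to 206 in the others. H3K4me2 had a median change of -0.08 over the 1378 symbols and 0.13 over all symbols.

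Of the 34 genes of the second direction, 8 are on the progenitor and eye field list, which holds 17 of the 1378 symbols with both marks and 29 of all 20045. The list was written with earlier results of these data known, so this count is a description and no independent support. The symbols of this direction outside the 1378 were not counted against the list. The 8 included Pax6, Sox2, Lhx2, Sox9, Sfrp2, Hmga2 and Gli1. Lin28a, whose older name on that list was not matched in the table, was among the 63 of the first direction, with H3K4me2 of 37 at E17.5 and 81 at PN15 and H3K27me3 of 226 and 40. Pax6 (chromosome 2, 105509053 to 105543317, plus strand) had H3K4me2 of 137, 97, 114 and 44 and H3K27me3 of 4, 15, 113 and 178 in order of stage. Sox2 (chromosome 3, 34548927 to 34551383, plus strand) had H3K4me2 of 104, 56, 124 and 36 and H3K27me3 of 26, 75, 112 and 182. In both genes H3K27me3 was higher at each later stage, while H3K4me2 was lowest at PN15. Over the whole progenitor list the median H3K27me3 was 17, 42, 54 and 82, and both marks were found at 8, 15, 17 and 16 of 29 genes.

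The 63 genes of the first direction were not counted against any list, and a few are given as examples. Pitpnm3 (chromosome 11, 71861030 to 71949280, minus strand) had H3K4me2 of 27, 19, 63 and 147 and H3K27me3 of 238, 236, 68 and 23. Slc12a5, the neuronal potassium-chloride cotransporter gene, had H3K4me2 of 32, 23, 61 and 140 and H3K27me3 of 239, 225, 85 and 19. Tulp1 had H3K4me2 of 22, 20, 52 and 81 and H3K27me3 of 273, 340, 106 and 49. At PN7 each of these 3 genes was between its PN1 and PN15 values in both marks. Slc17a7, the vesicular glutamate transporter gene of photoreceptors and bipolar cells, the channel genes Kcnc1 and Kcnk3, and Nefh, the heavy neurofilament gene, belonged to the same 63. The genes of these paragraphs were chosen after their values were seen, from the symbols past 2-fold in both marks.

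**Figure D4:**
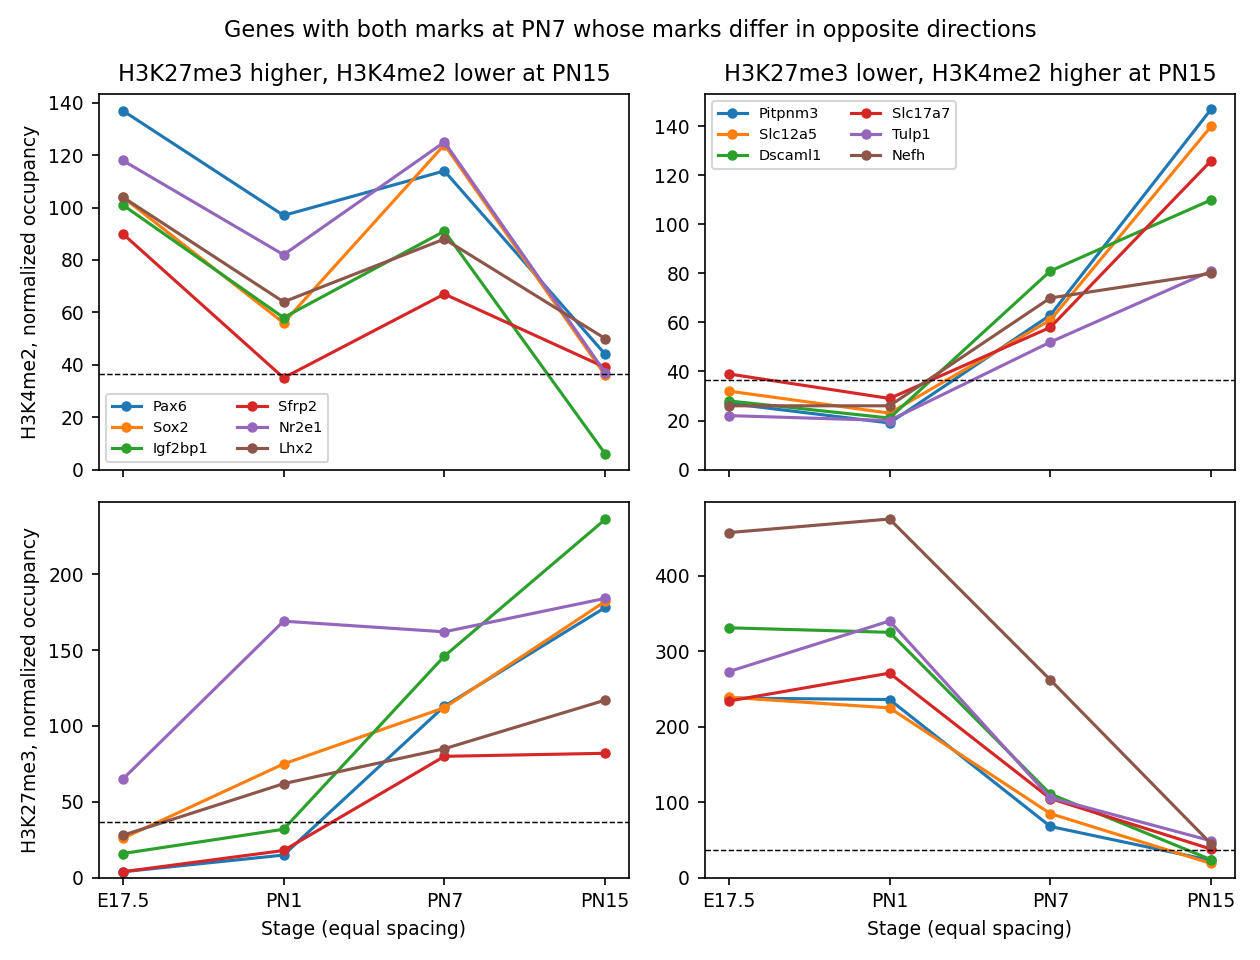
H3K4me2 (top) and H3K27me3 (bottom) as normalized occupancy (y axes) at the 4 stages (x axis, equal spacing) for 6 genes of each direction, with the threshold as a dashed line and 1 library for each point. At Pax6 and Sox2 H3K27me3 reaches 178 and 182 at PN15, while at Pitpnm3 and Slc12a5 it reaches 23 and 19 and H3K4me2 reaches 147 and 140.

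The 5 leading symbols with both marks at PN7 only had 1 mark alone at PN1 and the other alone at PN15. Igf2bp1 and Dscaml1 were past 2-fold in both marks between E17.5 and PN15, and the H3K4me2 of Trim71, Sulf2 and Cpeb1 was not. Trim71 (chromosome 9, 114420393 to 114473487, minus strand), which encodes a stem cell RNA-binding ubiquitin ligase, had H3K4me2 of 60, 48, 93 and 31 and H3K27me3 of 13, 30, 156 and 93. Igf2bp1, an oncofetal RNA-binding protein gene, had H3K4me2 of 101, 58, 91 and 6 and H3K27me3 of 16, 32, 146 and 236. Sulf2, a heparan sulfatase gene, had 70, 54, 89 and 35 against 10, 20, 120 and 134. These 3 had H3K4me2 alone before PN7 and H3K27me3 alone after it. Cpeb1, which encodes a translational regulator, had H3K4me2 of 36, 24, 81 and 69 and H3K27me3 of 151, 196, 100 and 27. Dscaml1, a cell adhesion gene of retinal neurons, had 28, 21, 81 and 110 against 331, 325, 111 and 24. These 2 had H3K27me3 alone before PN7 and H3K4me2 alone after it. The 5 genes do not stand for all symbols with both marks at PN7. Of all those symbols, 40 had H3K4me2 alone at E17.5 and H3K27me3 alone at PN15, and 35 had the reverse. The same mark alone at both of these stages was more frequent, with H3K4me2 at 65 symbols and H3K27me3 at 53. PN1 did not enter these counts, and the symbols with both marks at PN7 only were not counted apart.

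The windows of the symbols with both marks were rich in CpG. The observed to expected CpG ratio was computed over 5 kb around the start in mm9 for 19720 symbols (98.4%) with an unambiguous match. Its median was 0.50 (quartiles 0.41 and 0.58) with both marks, 0.47 (0.40 and 0.56) with H3K4me2 alone, 0.34 (0.26 and 0.43) with H3K27me3 alone and 0.26 (0.16 and 0.39) with neither. The median share of G and C was 53.0%, 50.3%, 50.1% and 45.2%. The quartiles of the first and second class overlapped widely, and those of the first and the last did not. The share of symbols with both marks was 0.705% where the ratio was at most 0.2 and 18.2% where it was over 0.6, and H3K4me2 alone went from 1.62% to 59.6% over the same range. H3K27me3 alone was most frequent between 0.2 and 0.4, at 15.9%.

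Position set the classes apart in other respects. Only 9.0% of the symbols with both marks had another protein-coding start in their window, against 26.3% with H3K4me2 alone, 7.14% with H3K27me3 alone and 14.2% of all symbols, so for 122 symbols the sums may include the promoter of a neighbour. The nearest other gene with a start more than 10 kb away carried H3K27me3 in 21.5% of cases, against 29.5% for symbols with H3K27me3 alone and 15.9% for all symbols. On the X chromosome lay 1.03% of the symbols with both marks and 0.575% of those with H3K4me2 alone, against 6.2% with H3K27me3 alone and 5.71% with neither.

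**Figure D5:**
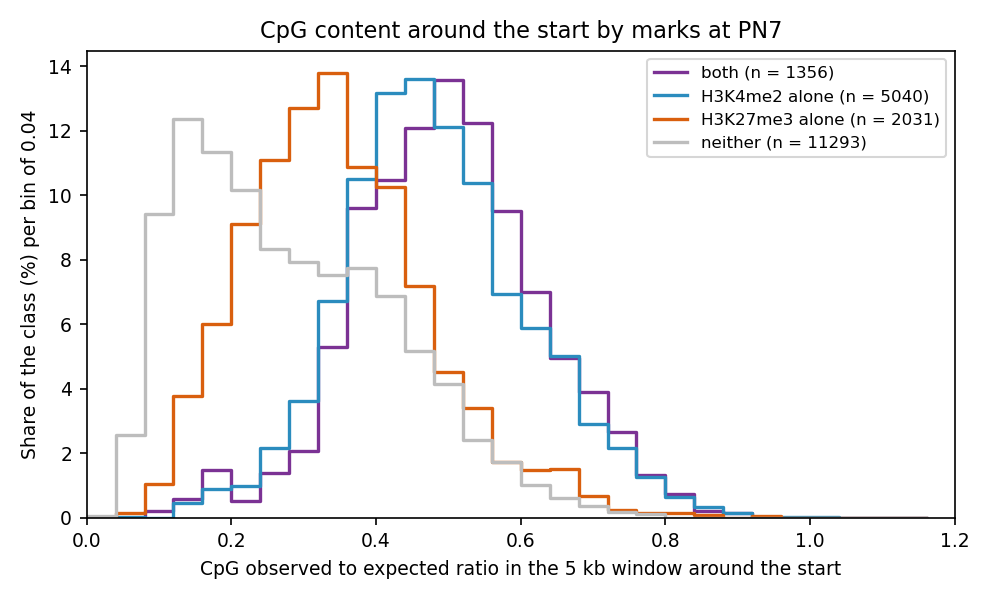
Distribution of the CpG observed to expected ratio in the 5 kb window around the start (x axis) for each class at PN7, as the share of the class in each bin (y axis, %). The curves with both marks and with H3K4me2 alone lie together around medians of 0.50 and 0.47, to the right of H3K27me3 alone (0.34) and neither (0.26).

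The threshold cut through a continuous range. The smaller of both values lay between 37 and 41 for 263 of the 1378 symbols, and between 32 and 36 for 347 symbols outside. Just inside were Wnt5b with 37 and 42 and Rrm2 with 39 and 37. Just outside were Dlx1 with 36 and 509, Gad1 with 36 and 450, and Epha6 with 64 and 36. Genes near the line, as these, change class with small shifts of either library.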

How the data were processed

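ChIP-Seq of H3K4me2 and H3K27me3 was done by the authors on nuclei of pooled retinas. They mapped reads with Bowtie 0.12.4 to mm9, dropped reads with several positions, assumed fragments of 190 bp and added up read midpoints up to 2.5 kb from every RefSeq TSS. The authors scaled the sums to the mapped reads of each library and deposited them, rounded, as a score (normalized occupancy). Count models do not apply to such values, and the depth of each library is unknown here.

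The table held 25152 entries of 20045 symbols in 8 columns. A trailing point and number was dropped, and a symbol was represented by its entry of largest 8-column sum. That step also joined some names that end in a number, such as Epb4, and 25 symbols that read as dates were kept. Of 10 samples, 2 have no column and were not analysed here. Symbols were classed at 4 times the anti-GFP mean given in the methods. With 1 library for each mark and stage there was no test. The members and lists were chosen with earlier results of these data known, and 21 lists and 39 families were counted by class. The text gives the share over all symbols beside the first counts. Named genes were the 12 highest with both marks by the smaller value, the 10 highest with each mark alone, up to 6 of each cell type, Polycomb and H3K4 enzyme list by the larger value, and the 5 highest with both marks at PN7 only; all other genes in the text were chosen with values known. Some genes that this rule names are not reported here. Of the listed genes, Cngb1, Sept4, Lin28, Kmt2d and Setd1b were not matched by name.

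CpG was computed in the mm9 genome around GENCODE vM1 gene starts, which may differ from the authors' RefSeq starts, because the promoter table planned for this matched too few symbols by name; that table (RefSeq, GRCm38.p6) gave only the printed sequences. The classification was tested on simulated data. Alternatives were 2 and 6 times the anti-GFP mean, the mean over entries or every entry, libraries rescaled to 1 median for each mark, the top 25% of each column, removal of symbols at 0, and 5 in place of 1 added before logarithms. Python 3.11.15, numpy 2.4.6 and pandas 2.3.3 were used.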

Additional observations from a re-analysis of the deposited data

How the results depend on the processing

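No paired analysis was possible because each mark and stage has 1 library and no result comes from a test. At 2 times the anti-GFP mean, PN7 had 3321 symbols with both marks, 8043 with H3K4me2 alone and 6423 with neither, and both marks were found at 3978 symbols (E17.5), 3681 (PN1) and 3103 (PN15). At 6 times it, PN7 had 548 with both and 2260 with H3K4me2 alone, and the other stages had 533, 148 and 285. Rescaled libraries gave 1922 symbols with both at PN7, 1004 at E17.5 and 1264 at PN1, so PN7 then had the most, whereas E17.5 had with the values as deposited (1507 against 1378). The top 25% of each column gave 1565 with both and 3464 with H3K27me3 alone at PN7, and 753 with both at E17.5 and 366 at PN15. Without symbols at 0, neither mark was found at 7583. Of the symbols with both marks at PN7, taken anew under each setting, the share with both at PN1 was 80.8% at 2 times and 17.3% at 6 times the anti-GFP mean. At PN15 it was 32.3% at 6 times, 32% after rescaling and 17.6% for the top 25%, and at E17.5 it was 43.1% after rescaling and 32.5% for the top 25%. The ratio of observed to independent sharing crossed 1 at 2 times the anti-GFP mean, to 1.09 at E17.5 and 1.02 at PN1, and at PN15 it was 0.323 at 6 times and 0.282 for the top 25%. At PN7 it stayed above 1 under the 8 alternatives run, from 1.03 to 1.54. The listed genes with both marks numbered 116 at 2 times and 40 at 6 times, against 73. Median CpG ratios kept their order by class at 2 and 6 times, and the median log2 balance stayed negative, at -0.45 with 5 added and -0.15 after rescaling. The alternatives for the other stages, for symbols with another start in the window and for the 2 directions were chosen after seeing the data. The causes were not tested.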

Other observations

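Both marks were above the threshold at E17.5, PN1 and PN15 but not at PN7 at 31 symbols, of which 21 had H3K27me3 alone and 10 had H3K4me2 alone at PN7. Otx2, a factor of photoreceptor and bipolar precursors, read 73, 58, 33 and 140 in H3K4me2 in order of stage, while H3K27me3 read 212, 289, 130 and 46. Its H3K4me2 at PN7 was 33, close under the threshold. Kpna1, which encodes an importin alpha, had H3K27me3 of 430, 397, 30 and 192 in the same order, with H3K4me2 of 65, 48, 41 and 97. Its H3K27me3 was thus low in the PN7 library only. Cxcr4, a chemokine receptor gene, had H3K4me2 of 131, 82, 107 and 134 and H3K27me3 of 43, 46, 35 and 55, and so left the class by a small difference. These genes were chosen after their values were seen.

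Inhibitors of the cell cycle differed among themselves at PN7. Cdkn1a, a target of p53, carried both marks with H3K4me2 of 120 and H3K27me3 of 60, and Cdkn1c did so narrowly with 41 and 40. Cdkn2a, the gene of a senescence-linked inhibitor and a known Polycomb target, had 5 and 429, and Cdkn2b had 35 and 218. Cdkn1b, an inhibitor that acts as cells leave division, had 83 and 7.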
